A study of Mus musculus with 36 samples.

Results

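The genes described here make, break down and read out the second messengers cAMP and cGMP in mouse striatum. They were taken by gene symbol alone: adenylyl cyclases (Adcy), guanylyl cyclases (Gucy), cyclic nucleotide phosphodiesterases (Pde), subunits of protein kinase A (PKA: Prkaca, Prkacb, Prkar1a, Prkar1b, Prkar2a, Prkar2b), protein kinase G (PKG: Prkg1, Prkg2) and A-kinase anchoring proteins (Akap). The rule found 65 lines in each of the deposited tables, of 22560 lines with values in the table of the designer-receptor mice and 22380 in that of the D1 line. These were 10 adenylyl cyclases, 9 guanylyl cyclases, 23 phosphodiesterases, 6 PKA subunits, 2 PKG genes and 15 anchors, under 64 symbols, because Pde4d has 2 lines with separate Ensembl identifiers. How the reads of Pde4d were divided between its lines is not given in the sources used here.

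RNA was collected by translating ribosome affinity purification (TRAP), in which a green fluorescent tag on ribosomal protein L10a lets antibodies pull down the ribosomes of 1 cell type, and the RNA left behind (unbound) stands for the whole tissue. In 1 set of mice the tag was in microglia, through the tamoxifen-induced Cre of Cx3cr1CreErt2/+(Litt) and the allele Eef1a1LSL.eGFPL10a/+, with tamoxifen at 4 to 6 weeks of age. All these mice also carried Camk2a-tTA, a driver of forebrain neurons, with TetO-Chrm3 or TetO-Chrm4, the designer receptors that the drug CNO acts on, and were injected with CNO or saline 2 h before the experiment. In the other set the tag was in D1 neurons (Drd1-eGFPL10a), and mice were labelled IL34-KO or control. The groups were pull-down and unbound RNA of Chrm3 mice given CNO (3 libraries each) or saline (3 each), of Chrm4 mice given CNO (2 each) or saline (2 each), D1 pull-down of labelled Il34 knockouts (3) and controls (4), and unbound RNA of labelled Il34 knockouts (4) and controls (4). The source label reads Il34-/- for labelled knockouts and controls alike and adds Drd1-Cre for the labelled knockouts. No group received CNO without a designer receptor, age at the experiment is not given, and nothing says whether libraries of a group came from separate animals, so p-values measure the spread between libraries, which may be technical.

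Expression is in RPKM, a read count scaled by gene length and library depth, so that levels of different genes can be compared within a table. Depth ran from 12.1 M to 109 M reads in genes per library in the table of 20 libraries and from 11.3 M to 41.1 M in the table of 15. The microglial label held: the 15 microglial markers summed to 6752 to 9987 RPKM in pull-downs of mice given saline, against 52.8 to 74 RPKM in their unbound RNA. In the D1 line, 1 library of each of the 4 groups stood apart. Its cortical glutamatergic markers summed to 46.8 to 76.7 RPKM, against 3.58 to 25.9 RPKM in the other libraries of the same groups.

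Adenylyl cyclases make cAMP from ATP under the control of G proteins, and soluble guanylyl cyclase, a dimer of an alpha and a beta subunit, makes cGMP when it binds nitric oxide. Phosphodiesterases hydrolyse either or both messengers. cAMP frees the catalytic subunits of PKA from its regulatory subunits, and anchoring proteins hold PKA near its substrates. In striatal spiny neurons dopamine acts largely through this pathway: D1 receptors raise cAMP through the G protein subunit Golf and the cyclase Adcy5, and Pde10a and Pde1b are the abundant phosphodiesterases of these cells.

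The promoters of the members were searched, where a window was found, on both strands of windows of 250 bases before to 50 bases after RefSeq gene starts. Sought were the full cAMP response element TGACGTCA, its shorter form TGACG (which the full element contains), the AP-1 element TGANTCA and the myeloid PU.1 element GAGGAAGT. Windows were found for 53 of the 64 symbols. Pde3b had no window, so its promoter was not searched. The windows below are shown because, of the members searched, Prkar1a alone had the full element, and Adcy7 and Akap13 were high in microglia. Pde1b and Pde10a were high in D1 neurons, and Pde4d had the largest upward difference after CNO in Chrm3 unbound RNA. The 250 bases before the start (RefSeq, build GRCm38.p6) read as follows, with matches in capitals:
Prkar1a, chr11:109650699-109650948, plus strand: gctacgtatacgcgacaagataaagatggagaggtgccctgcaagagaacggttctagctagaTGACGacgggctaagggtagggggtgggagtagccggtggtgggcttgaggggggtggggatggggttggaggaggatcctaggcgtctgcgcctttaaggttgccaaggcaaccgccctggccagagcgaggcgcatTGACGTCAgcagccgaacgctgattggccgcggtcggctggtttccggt
Adcy7, chr8:88282742-88282991, plus strand: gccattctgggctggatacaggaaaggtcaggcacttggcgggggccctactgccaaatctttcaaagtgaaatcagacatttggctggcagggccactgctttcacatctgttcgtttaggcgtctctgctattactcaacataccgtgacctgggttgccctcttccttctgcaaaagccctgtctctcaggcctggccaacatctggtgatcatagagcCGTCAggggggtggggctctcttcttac
Adcy7, chr8:88288816-88289065, plus strand: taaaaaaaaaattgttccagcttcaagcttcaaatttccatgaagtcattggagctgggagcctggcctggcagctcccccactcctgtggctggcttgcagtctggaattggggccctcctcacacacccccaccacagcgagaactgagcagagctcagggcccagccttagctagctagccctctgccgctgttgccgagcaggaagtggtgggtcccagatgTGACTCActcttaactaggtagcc
Akap13, chr7:75455284-75455533, plus strand: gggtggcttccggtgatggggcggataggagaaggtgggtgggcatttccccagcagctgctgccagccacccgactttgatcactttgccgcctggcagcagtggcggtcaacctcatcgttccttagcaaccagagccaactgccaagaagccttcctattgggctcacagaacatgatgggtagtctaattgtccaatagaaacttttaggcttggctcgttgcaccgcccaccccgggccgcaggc
Pde1b, chr15:103502784-103503033, plus strand: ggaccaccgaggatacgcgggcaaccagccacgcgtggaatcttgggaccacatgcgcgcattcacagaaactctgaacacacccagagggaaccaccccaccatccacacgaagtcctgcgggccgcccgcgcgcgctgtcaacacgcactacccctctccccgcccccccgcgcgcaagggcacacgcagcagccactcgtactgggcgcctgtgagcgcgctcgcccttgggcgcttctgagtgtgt
Pde10a, chr17:8801495-8801744, plus strand: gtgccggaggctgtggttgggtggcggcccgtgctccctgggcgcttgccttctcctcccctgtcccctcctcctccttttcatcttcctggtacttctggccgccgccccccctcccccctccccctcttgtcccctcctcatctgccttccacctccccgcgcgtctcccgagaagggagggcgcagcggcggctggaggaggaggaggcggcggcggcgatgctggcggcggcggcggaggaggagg
Pde4d, chr13:108653927-108654176, plus strand: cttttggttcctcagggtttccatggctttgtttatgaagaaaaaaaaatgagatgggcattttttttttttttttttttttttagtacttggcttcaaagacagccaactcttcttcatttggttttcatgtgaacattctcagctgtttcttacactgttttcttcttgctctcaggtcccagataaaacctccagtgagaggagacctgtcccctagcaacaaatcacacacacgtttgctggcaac
The full element stood in 1 stretch of Prkar1a, covered by overlapping windows of that gene. It occurred in 2 of 102 member windows (1.96%) and in 1.79% of 32851 windows of all genes. The short form stood in the first window of Adcy7 and in 21.6% of 102 member windows, against 20.8% of all windows. An AP-1 match stood in the second Adcy7 window, where 7.81% of all windows have one. The windows of Akap13, Pde1b, Pde10a and Pde4d shown held none of the letters searched. A PU.1 match, found in 3.2% of all windows, occurred among the members searched in Adcy3 alone.

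In level, PKA subunits were among the highest members in every fraction. In the 10 microglial pull-downs Prkar1a, the type I-alpha regulatory subunit, had the highest mean, 166 ± 15.3 RPKM (SD, n = 10). The catalytic subunits Prkaca and Prkacb followed with 89 ± 14.6 and 87.6 ± 8.95 RPKM, and their ranges overlapped. Pde3b, which hydrolyses cAMP and is inhibited by cGMP, came next with 52.4 ± 12.3 RPKM. In the 7 D1 pull-downs the order was Pde1b at 252 ± 32.6 RPKM, Prkacb at 235 ± 10.2 RPKM, Pde10a at 234 ± 18.8 RPKM and Prkar1a at 211 ± 27 RPKM (SD, n = 7 each), with overlapping ranges between all neighbours. At the other end 14 members stayed below 1 RPKM in every library, among them the retinal Pde6a, Pde6b and Pde6c, the soluble adenylyl cyclase Adcy10 and the membrane guanylyl cyclases Gucy2c, Gucy2d and Gucy2f.

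The first comparison set microglial pull-downs against unbound RNA in mice given saline (5 libraries each), in 1 fit of all 20 libraries with limma. Pde3b, the PKA anchor Akap13, the cyclase Adcy7 and the nuclear anchor Akap8 were higher in microglia, and most other members were lower. Of the 65 members 45 passed the filter of a mean of 1 RPKM. By limma's test with Benjamini-Hochberg adjustment over all genes, 4 were higher and 32 lower, where 31.9% and 33.2% of the 11721 genes tested were called higher and lower. The median log2 difference was -0.73 over the members tested and -0.028 over all genes.

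Pde3b stood at 55.8, 51.5, 38.1, 36.4 and 56.4 RPKM in the microglial pull-downs, against 2.69, 1.65, 1.59, 1.86 and 1.86 RPKM in unbound RNA. All pull-downs lay far above all unbound libraries, and the log2 difference, on the scale of log2(RPKM + 1) used throughout, was 4.04 ± 0.17 (SE, limma adjusted p = 5.81e-14). Akap13 had 32, 42.3, 28.8, 30.9 and 32.6 RPKM in pull-downs and 3.15, 3.1, 2.82, 2.64 and 2.91 RPKM in unbound RNA, a log2 difference of 3.12 ± 0.12 (limma adjusted p = 2.64e-14). Its groups were likewise apart. Adcy7, a cyclase stimulated by G protein beta-gamma subunits, had 6.07, 3.32, 3.3, 3.11 and 4.9 RPKM in pull-downs and 0.289, 0.229, 0.446, 0.434 and 0.285 RPKM in unbound RNA. It passed the filter through the pull-downs alone, and its log2 difference of 1.90 ± 0.20 (limma adjusted p = 8.41e-08) is understated by the pseudocount of 1. On the recovered reads it was 3.61. Akap8 had 21.7, 29.2, 22.4, 22.2 and 27.2 RPKM in pull-downs, against 13.2, 13.7, 11.7, 12.4 and 9.89 RPKM in unbound RNA. The groups did not overlap, which held in this direction for 24.8% of all genes, and the log2 difference was 0.98 ± 0.12 (limma adjusted p = 5.52e-07).

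**Figure D1:**
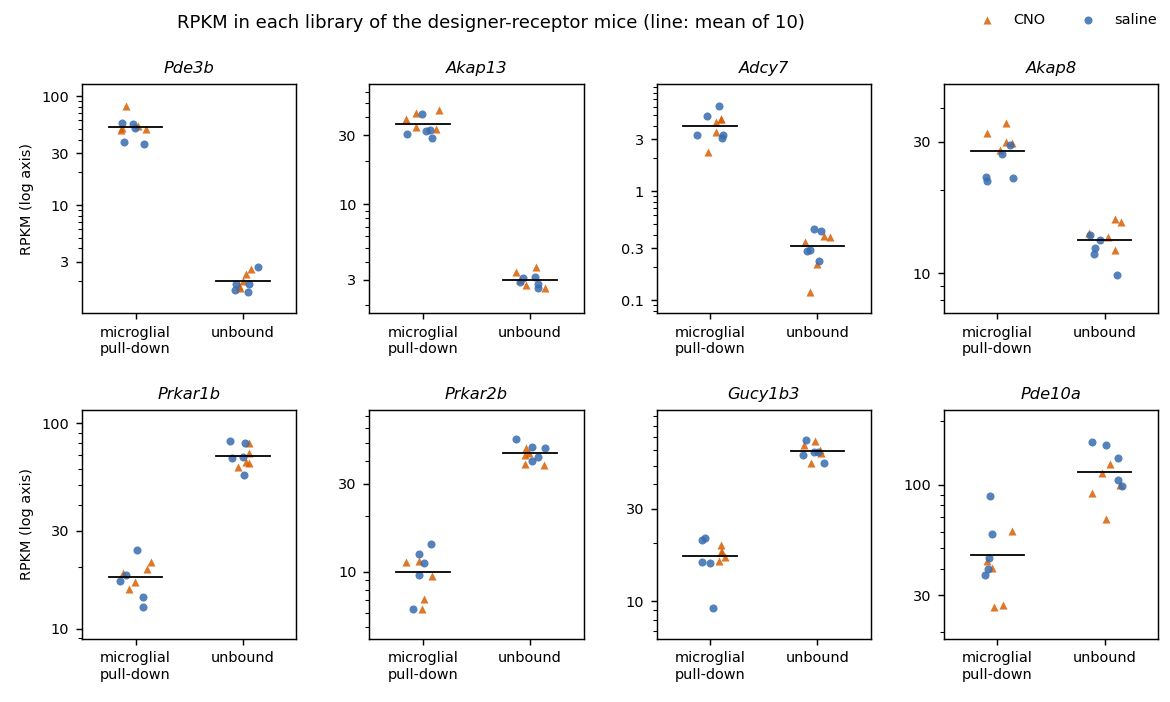
RPKM (log axis) of 8 members in each of the 10 microglial pull-downs (left) and the 10 unbound libraries (right) of the designer-receptor mice, triangles for CNO and circles for saline, with a line at the mean. Pde3b, Akap13, Adcy7 and Akap8 lie higher in every pull-down than in any unbound library, and Prkar1b, Prkar2b and Gucy1b3 lie lower, while Pde10a is lower on average with some overlap.

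Among the other cyclases, 4 of the 7 adenylyl cyclases tested were lower in microglia. Adcy5, the main striatal cyclase, had 19.8, 13.1, 28.7, 22.5 and 18.6 RPKM in pull-downs, against 52.7, 33.8, 47.9, 51 and 41.9 RPKM in unbound RNA (log2 -1.14 ± 0.18, limma adjusted p = 1.98e-05). Its groups did not overlap. Adcy1, a calcium-stimulated cyclase of neurons, differed by -0.90 ± 0.20 with overlapping groups (limma adjusted p = 0.00076), and Adcy9 at -0.39 ± 0.21 did not pass (limma adjusted p = 0.104). Adcy8, another calcium-stimulated cyclase, passed the filter through the unbound RNA alone, with 0.818, 2.03, 0.272, 0.824 and 0.539 RPKM in pull-downs and 1.77, 1.69, 1.98, 1.05 and 2.36 RPKM in unbound RNA, which overlap (log2 -0.60 ± 0.24, limma adjusted p = 0.0342). Its call was lost without Chrm3 pull-down 1 or 3, Chrm4 pull-down 2, Chrm3 unbound library 1 or 3 or Chrm4 unbound library 2, with adjusted p up to 0.187. All 3 soluble guanylyl cyclase genes tested were lower with no overlap between the fractions, as for 23.8% of all genes. The beta subunit Gucy1b3 had 15.8, 15.7, 21.3, 20.7 and 9.2 RPKM in pull-downs and 58.4, 51.5, 56.8, 67.5 and 58.6 RPKM in unbound RNA (log2 -1.86 ± 0.15). The alpha subunits Gucy1a3 and Gucy1a2 differed by -1.38 ± 0.14 and -1.26 ± 0.13.

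Of the 17 phosphodiesterase lines tested 14 were lower. The calcium-calmodulin-activated Pde1b had 31.2, 21.2, 45, 38.4 and 32.4 RPKM in pull-downs and 91.3, 70.2, 101, 113 and 77.5 RPKM in unbound RNA (log2 -1.42 ± 0.17, limma adjusted p = 4.94e-07). Its relatives Pde1a and Pde1c differed by -1.26 ± 0.16 and -1.36 ± 0.20, the cAMP-specific Pde7b by -1.39 ± 0.17, and Pde10a, which hydrolyses both messengers, by -1.32 ± 0.21. The cAMP-specific Pde4b differed by -0.96 ± 0.12, and the Pde4d lines ENSMUSG00000074661 and ENSMUSG00000021699 by -0.95 ± 0.17 and -0.60 ± 0.18. Pde2a, the cGMP-stimulated enzyme, had the smallest difference of those that passed, -0.42 ± 0.13 (limma adjusted p = 0.011). Leaving out either the second Chrm4 pull-down or the first Chrm4 unbound library ended its call, with adjusted p up to 0.071. Pde7a (-0.13 ± 0.18) and Pde3a (-0.14 ± 0.26) did not pass.

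The PKA subunits did not all lie at the same distance between the fractions. Prkar1b, the type I-beta regulatory subunit of neurons, had 12.7, 18.2, 24.2, 14.3 and 17 RPKM in pull-downs, against 56.3, 80.2, 68, 68.5 and 81.8 RPKM in unbound RNA. Prkar2b, the type II-beta subunit, had 11.2, 6.27, 14.1, 12.5 and 9.56 RPKM in pull-downs and 52.2, 40.0, 47, 47.5 and 41.9 RPKM in unbound RNA. Neither pair of groups overlapped, and these were the largest downward differences of the members, -2.03 ± 0.15 and -2.01 ± 0.17 on the log2 scale (limma adjusted p = 3.35e-10 and 3.21e-09). The alpha forms were nearer to even. Prkar1a at -0.44 ± 0.10 and Prkaca at -0.41 ± 0.13 passed, against -1.29 ± 0.10 for Prkacb, and Prkar2a at -0.048 ± 0.15 did not (limma adjusted p = 0.785). Without the second Chrm4 pull-down Prkaca did not pass either (limma adjusted p = 0.0842). Prkg1, a cGMP-dependent kinase, had 2.34, 5.12, 4.4, 7.25 and 3.59 RPKM in pull-downs and 6.19, 3.94, 3.69, 2.17 and 3.1 RPKM in unbound RNA, which overlap. Among the anchors, the postsynaptic Akap5 and the Golgi and centrosome anchor Akap9 were lower by 1.45 ± 0.21 and 1.58 ± 0.16, while Akap7 (-0.062 ± 0.19), Akap10 (0.057 ± 0.15) and Akap8l (-0.25 ± 0.26) did not pass.

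Neuronal RNA was present in the microglial pull-downs. The 11 spiny neuron markers summed to 231 to 530.3 RPKM there, against 901 to 1443 RPKM in unbound RNA, and all 11 were called lower, with a median log2 difference of -1.49. Of 6 markers of perivascular macrophages, which also express Cx3cr1, 5 were higher (median 2.53), beside 15 of 15 microglial markers (median 6.39). RNA of other glia was present as well. Astrocyte markers summed to 112 to 162 RPKM in these pull-downs and 274 to 319 RPKM in unbound RNA. Oligodendrocyte markers summed to 169 to 365 RPKM and 520 to 752 RPKM. How far the levels of the members in the pull-downs come from neurons, other glia or perivascular macrophages was not tested. In bulk RNA, fewer cells of a type and less RNA per cell cannot be told apart.

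Other genes of the pathway were taken from a list of 74 symbols, chosen with earlier results of these data known, so their counts are a description. Of these 52 were tested, and 12 were higher and 31 lower in microglia, where 31.9% of all genes were higher and 33.2% lower. The inhibitory G protein subunits Gnai2 and Gnai3 (log2 2.91 and 1.57), the beta-adrenergic receptor Adrb1 (1.84), the PKA inhibitor Pkib (1.74) and the PKA substrate Vasp (4.47) were higher. The olfactory-type stimulatory subunit Gnal (-1.56), the inhibitory subunits Gnao1 and Gnai1 (-1.60 and -1.37), the PKA inhibitor Pkia (-1.57) and the PKA-regulated phosphatase inhibitor Ppp1r1b (-2.49) were lower.

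In the D1 line the pull-down was set against unbound RNA within labelled Il34 knockouts (3 against 4 libraries) and within controls (4 against 4). As deposited, RPKM of most genes were higher in D1 pull-downs: 85% and 84.8% of 10266 genes were called higher by limma in labelled knockouts and controls, and 5.92% and 6.84% lower. The median log2 differences of all genes were 0.85 and 0.81. Of 41 members tested, 34 were higher and 4 lower in labelled knockouts, and 33 higher and 4 lower in controls, near the background. Differences are therefore read against the median of all genes, and calls are given where 2 other scalings, quantile normalization and voom on recovered reads with trimmed-mean scaling, both made them. Under these the median difference of all genes lay between 0.00757 and 0.102. Both scalings called 9 members higher and 10 lower in labelled knockouts, and 6 higher and 10 lower in controls. Of all 10266 genes, quantile normalization on its own called 3433 higher and 2435 lower in labelled knockouts, and 3609 and 2291 in controls. Voom on its own called 2736 higher and 2872 lower in labelled knockouts, and 2594 and 2786 in controls. The share of all genes called by both scalings together was not computed. The members' calls therefore have no like share beside them and are given as a description.

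Pde1b, Adcy5, Pde2a, Pde8b, Pde6d and Adcy3 were higher in D1 neurons under all 3 scalings in both genotypes. Pde1b stood at 239, 273 and 265 RPKM in D1 pull-downs of labelled knockouts, against 66.3, 72.8, 77.8 and 83.2 RPKM in their unbound RNA. In controls it stood at 184, 262, 269 and 274 RPKM in D1 pull-downs and 67.9, 78.1, 84.2 and 86.5 RPKM in unbound RNA. The fractions were apart in both, as in this direction for 32 of the 41 members tested in each genotype. The share of all genes with fractions apart was not computed. The log2 difference of Pde1b exceeded that of the median gene by 0.93 in labelled knockouts and 0.81 in controls, the largest excess of the members in each. Adcy5 had 105, 140.3 and 116 RPKM in D1 pull-downs of labelled knockouts and 29.6, 41.8, 38.4 and 41.7 RPKM in unbound RNA. In controls it had 86, 116, 118 and 155 RPKM in D1 pull-downs and 30.1, 35.7, 42.1 and 49.6 RPKM in unbound RNA, and its excess was 0.80 in labelled knockouts and 0.76 in controls. The high-affinity cAMP enzyme Pde8b exceeded the median gene by 0.55 and 0.65 in labelled knockouts and controls, and the cGMP-stimulated Pde2a by 0.69 and 0.64. Pde10a exceeded it by 0.53 and 0.55, without a call in both other scalings. Adcy3, a cyclase of neuronal cilia, passed the filter through the D1 pull-downs alone, and the pseudocount held its excess as deposited to 0.016 and 0.038.

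Pde8a, Akap13, Akap7 and Akap12 were lower in D1 neurons under all 3 scalings in both genotypes. Pde8a, the relative of Pde8b, had 2.84, 1.51 and 1.7 RPKM in D1 pull-downs of labelled knockouts, against 5.87, 4.7, 3.54 and 3.82 RPKM in unbound RNA. In controls it had 2.31, 1.42, 1.49 and 1.69 RPKM in D1 pull-downs and 4.4, 5.06, 4.94 and 3.71 RPKM in unbound RNA. Its fractions did not overlap in either genotype, as in this direction for 4 of 41 members in labelled knockouts and 3 in controls. Its log2 difference as deposited was -0.87 ± 0.16 in labelled knockouts and -1.02 ± 0.15 in controls (limma adjusted p = 8.8e-05 and 6.14e-06). Akap13, high in microglia, stayed at 0.425 to 0.844 RPKM in the D1 pull-downs and 1.1 to 1.65 RPKM in unbound RNA. Akap13 and the scaffold Akap12 passed the filter through the unbound RNA alone. Akap7 had 4.56, 3.24 and 2.88 RPKM in D1 pull-downs of labelled knockouts and 8.5, 4.88, 5.3 and 5.48 RPKM in unbound RNA, with 4.83, 3.18, 3.01 and 3.18 RPKM in D1 pull-downs of controls and 7.13, 5.79, 5.81 and 4.63 RPKM in their unbound RNA. A further 6 members, Adcy2, Akap6, Akap9, Gucy1a2, Gucy1a3 and Prkar2a, were called lower in both genotypes by quantile normalization and on recovered reads, but not as deposited. For soluble guanylyl cyclase the alpha subunit Gucy1a3 lay at -0.58 and -0.53 after quantile normalization in labelled knockouts and controls, and its beta partner Gucy1b3 lay at -0.056 and 0.044.

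**Figure D2:**
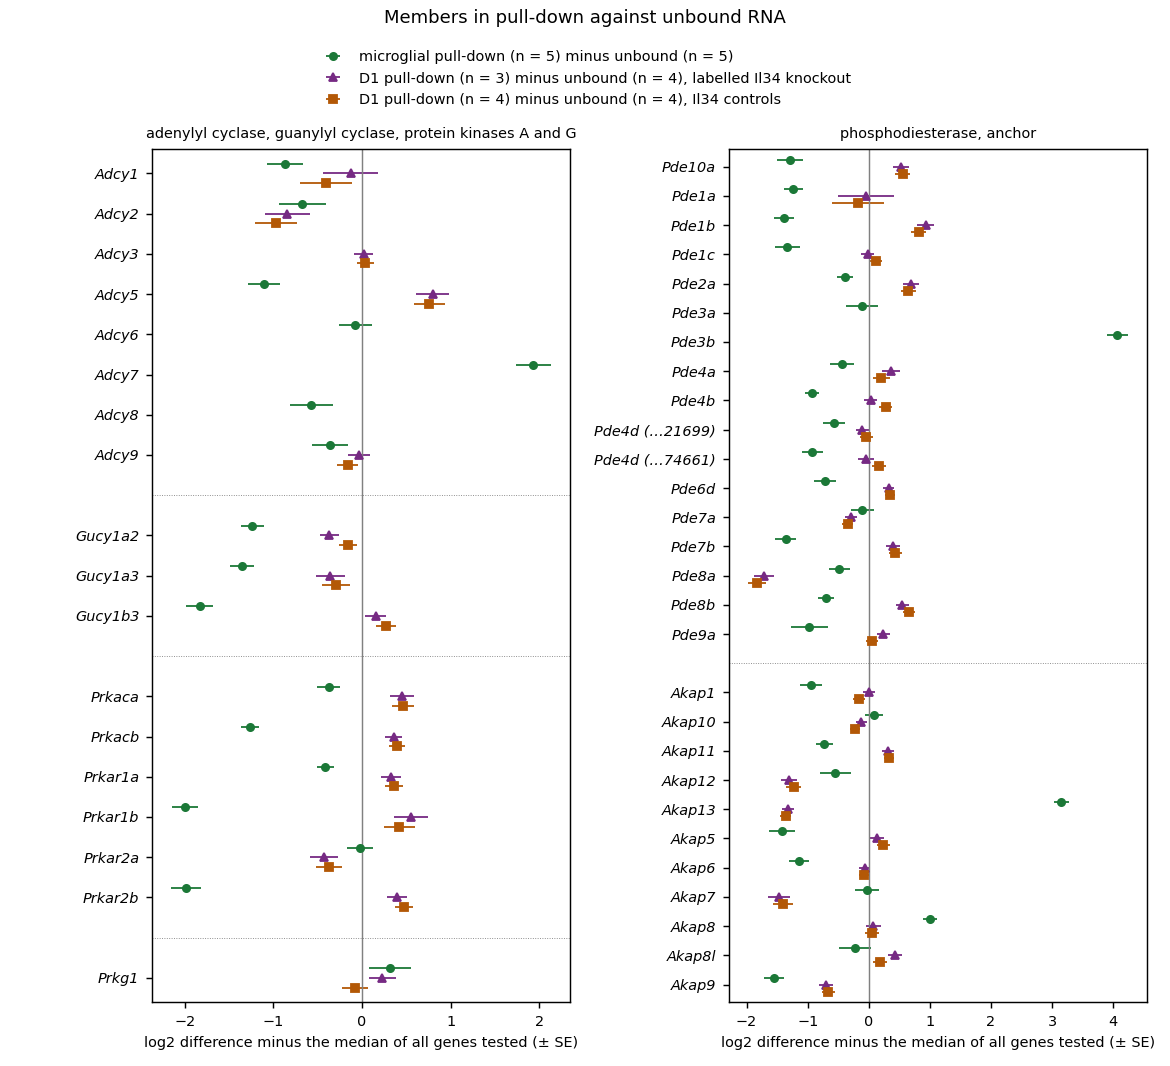
Log2 difference of each member between pull-down and unbound RNA, less the median difference of all genes tested (points, with SE as bars), for microglia (green circles), D1 neurons of labelled Il34 knockouts (purple triangles) and of Il34 controls (orange squares). Pde3b, Akap13, Adcy7 and Akap8 lie right of 0 in microglia, Pde1b and Adcy5 lie right of 0 in D1 neurons, and Pde8a, Akap7, Akap13 and Akap12 lie furthest left in D1 neurons.

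Shares within a family stay the same when all values of a library are multiplied by 1 factor, and they are given as a description, with no test. Of the summed RPKM of the 4 PKA regulatory subunits, Prkar1a made up 77.9 ± 2.94% in microglial pull-downs (SD, n = 10), 63.4 ± 2.24% in their unbound RNA (n = 10), 58.4 ± 2.28% in D1 pull-downs (n = 7) and 59.3 ± 1.1% in theirs (n = 8). Prkar2b made up 2.85 to 7.65% in microglial pull-downs and 17.4 to 22.5% in D1 pull-downs, which do not overlap. In unbound RNA it had 37.8 to 52.2 RPKM of a summed 340 to 394 RPKM in the designer-receptor mice. In that of the D1 line it had 25.5 to 34.4 RPKM of 136 to 175 RPKM. Prkaca was 39.2 to 55.1% of the catalytic RNA in microglial pull-downs and 21.6 to 27.6% in D1 pull-downs, where Prkacb made up the rest. In unbound RNA Prkaca had 98.1 to 129.6 RPKM of a summed 315 to 346 RPKM in the designer-receptor mice. In that of the D1 line it had 25.6 to 38 RPKM of 116 to 152 RPKM. On average both shares thus differed the same way between the unbound RNA of the mouse lines, and the part of the line was not tested. Within the D1 line, both shares overlapped between pull-downs and unbound RNA. Pde3b made up 9.84 to 28.5% of all phosphodiesterase RPKM in microglial pull-downs and 0.071 to 0.0934% in D1 pull-downs. Its lowest share in microglial pull-downs was in the third Chrm3 saline library, which had their highest spiny neuron sum, 530.3 RPKM. The part of neuronal RNA in these shares was not tested. Akap13 was 13.9 to 25.1% of the anchor RPKM in microglial pull-downs, where Akap5 leads D1 pull-downs with 37.1 to 43.7%. Adcy5 alone was 70.9 to 86.6% of the adenylyl cyclase RPKM of D1 pull-downs, against 48.3 to 76.6% in their unbound RNA.

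**Figure D3:**
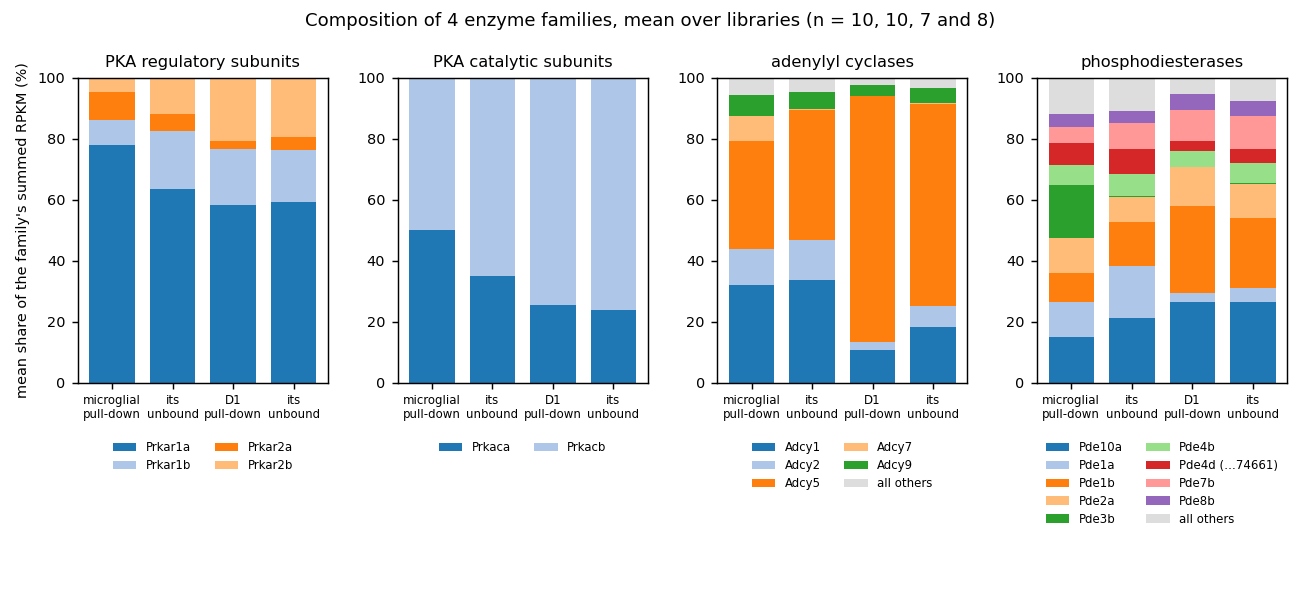
Mean share (%) of each member in the summed RPKM of its family, in microglial pull-downs (n = 10), their unbound RNA (n = 10), D1 pull-downs (n = 7) and theirs (n = 8), with members whose mean share never reaches 5% pooled in grey. Prkar1a and Prkaca take their largest shares in microglial pull-downs, Pde3b appears there as a band of 17.4%, and Adcy5 fills most of the D1 column.

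CNO was set against saline within Chrm3 and within Chrm4 mice, separately for unbound RNA and microglial pull-downs. In unbound RNA of Chrm3 mice 0 of 47 members tested passed limma's adjusted p, where 0.701% of 11123 genes did, 64 higher and 14 lower. At an unadjusted p under 0.05 there were 11 members, and 12.4% of all genes. The 6 members with the smallest p were both lines of Pde4d, which lay higher after CNO, and Pde1b, Gucy1a3, Pde8a and Adcy5, which lay lower.

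Pde4d, which hydrolyses cAMP and is known to be induced by it, had 6.81, 11.1 and 6.76 RPKM on line ENSMUSG00000021699 after CNO, against 4.95, 4.42 and 3.44 RPKM after saline. On line ENSMUSG00000074661 it had 46.9, 63.7 and 54.4 RPKM after CNO and 41.3, 38.5 and 36.8 RPKM after saline. Every CNO library lay above every saline library on both lines, as for 4.94% of all genes tested. The log2 differences were 0.79 ± 0.18 (95% interval 0.39 to 1.18, limma adjusted p = 0.0904) and 0.48 ± 0.12 (0.23 to 0.73, limma adjusted p = 0.102). On the recovered reads both passed with limma-voom, at 1.06 (adjusted p = 0.015) and 0.63 (adjusted p = 0.0242). In that fit 147 of 11123 genes were called higher and 18 lower. Without the first CNO library the line ENSMUSG00000074661 passed as well (limma adjusted p = 0.0336). That library had the lowest value of the CNO group on this line, so leaving it out had to widen the difference.

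In Chrm4 mice the Pde4d line ENSMUSG00000021699 had 4.94 and 4.28 RPKM after CNO and 4.47 and 4.71 RPKM after saline in unbound RNA, and the line ENSMUSG00000074661 had 42.9 and 36.5 RPKM after CNO and 40.4 and 38.7 RPKM after saline. Both overlap. The Chrm3 response minus the Chrm4 response was 0.78 ± 0.29 and 0.48 ± 0.18 (limma adjusted p = 0.583 and 0.609), where 0.0539% of all genes passed, so the receptors were not shown to differ. In microglial pull-downs of Chrm3 mice the lines overlapped between CNO (2.93, 3.43 and 2.23 RPKM, and 19, 27.3 and 27.4 RPKM) and saline (2.61, 3.78 and 3.09 RPKM, and 12.2, 19.3 and 21.8 RPKM). For the line ENSMUSG00000021699 the response in pull-downs minus that in unbound RNA was -0.89 ± 0.33 (unadjusted p = 0.0127, limma adjusted p = 1), where 0.00853% of all genes passed.

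Pde1b, Gucy1a3, Pde8a and Adcy5 lay lower after CNO in every Chrm3 unbound library. Pde1b had 52.2, 56.8 and 57.5 RPKM after CNO and 91.3, 70.2 and 101 RPKM after saline (log2 -0.63 ± 0.15, limma adjusted p = 0.0991). Gucy1a3 had 40.9, 48 and 43.7 RPKM after CNO and 69.7, 51.8 and 63 RPKM after saline (-0.46 ± 0.12, limma adjusted p = 0.13). Neither pair of groups overlapped, as for 13% of all genes in that direction. Pde8a had 5.54, 5.39 and 4.49 RPKM after CNO and 8.56, 8.02 and 7 RPKM after saline (-0.53 ± 0.15, limma adjusted p = 0.174). Adcy5 had 27.2, 32.7 and 30.8 RPKM after CNO and 52.7, 33.8 and 47.9 RPKM after saline (-0.53 ± 0.17, limma adjusted p = 0.213). These groups were also apart. Pde10a had 68.6, 99.5 and 91.3 RPKM after CNO and 134, 99.3 and 160.0 RPKM after saline, which overlap (-0.58 ± 0.19, limma adjusted p = 0.227).

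Most other members lay nearer to 0 in Chrm3 unbound RNA, with Pde7b at -0.41 ± 0.14 (limma adjusted p = 0.243). Among the kinases Prkar1a had 256, 258 and 247 RPKM after CNO and 222, 216 and 222 RPKM after saline (0.21 ± 0.085, limma adjusted p = 0.351). Its groups did not overlap, as for 4.94% of all genes in that direction. The other 5 PKA subunits lay between -0.12 and 0.13. Prkg1 and Prkg2, the cGMP-dependent kinases, lay at -0.31 and 0.39, with limma adjusted p of 0.508 and 0.558. The anchors ranged from -0.33 for Akap1 to 0.31, and the microglial Akap13 and Pde3b lay at 0.086 and -0.048.

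In the microglial pull-downs of Chrm3 mice 0 of 43 members passed limma's adjusted p, where 0.0436% of 11465 genes did, 5 in all. Unadjusted p was under 0.05 for 4 members, Gucy1a3, Pde1b, Pde10a and Akap8, and for 5.49% of all genes. Gucy1a3 had 14.5, 13.9 and 12.1 RPKM after CNO, against 26.7, 17.1 and 28.8 RPKM after saline, all lower as for 5.22% of all genes (-0.77 ± 0.22, limma adjusted p = 0.64). Pde1b had 17.7, 15.8 and 22.2 RPKM after CNO and 31.2, 21.2 and 45 RPKM after saline, which overlap (-0.72 ± 0.24, limma adjusted p = 0.754). Akap8, high in microglia, had 32.3, 30.1 and 35.1 RPKM after CNO and 21.7, 29.2 and 22.4 RPKM after saline, all higher as for 3.94% (0.41 ± 0.19, limma adjusted p = 0.892). The other microglial members overlapped between the groups. Pde3b had 49.3, 81.7 and 50.1 RPKM after CNO and 55.8, 51.5 and 38.1 RPKM after saline, with an interval of the log2 difference of -0.21 to 0.79. Akap13 had 38.8, 45.2 and 42.8 RPKM after CNO and 32, 42.3 and 28.8 RPKM after saline, with an interval of -0.083 to 0.70.

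Markers of cell types moved alongside. In unbound RNA all 11 spiny neuron markers lay lower after CNO in Chrm3 mice (median log2 -0.41), summing to 748 to 964 RPKM after CNO and 901 to 1292 RPKM after saline, and in pull-downs 10 of 11 did (median -0.36). Of 7 cortical glutamatergic markers 6 lay higher in unbound RNA, summing to 173 to 209 RPKM after CNO and 94.8 to 199.5 RPKM after saline. None of these spiny neuron and cortical markers passed. Of 14 microglial markers tested 13 lay lower in unbound RNA, summing to 42.1 to 54.1 RPKM after CNO and 58.4 to 74 RPKM after saline. All 8 oligodendrocyte markers also lay lower in unbound RNA (median -0.33). The second saline library had the highest cortical and the lowest spiny sum of its group, and also the lowest Pde1b, Gucy1a3, Adcy5 and Pde10a. Without it Pde1b (log2 -0.78, limma adjusted p = 0.0405) and Gucy1a3 (-0.58, limma adjusted p = 0.0487) passed. These calls add no support, because leaving out the saline library lowest in both genes had to widen their differences. The part of the markers' shift in these results was not tested.

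**Figure D4:**
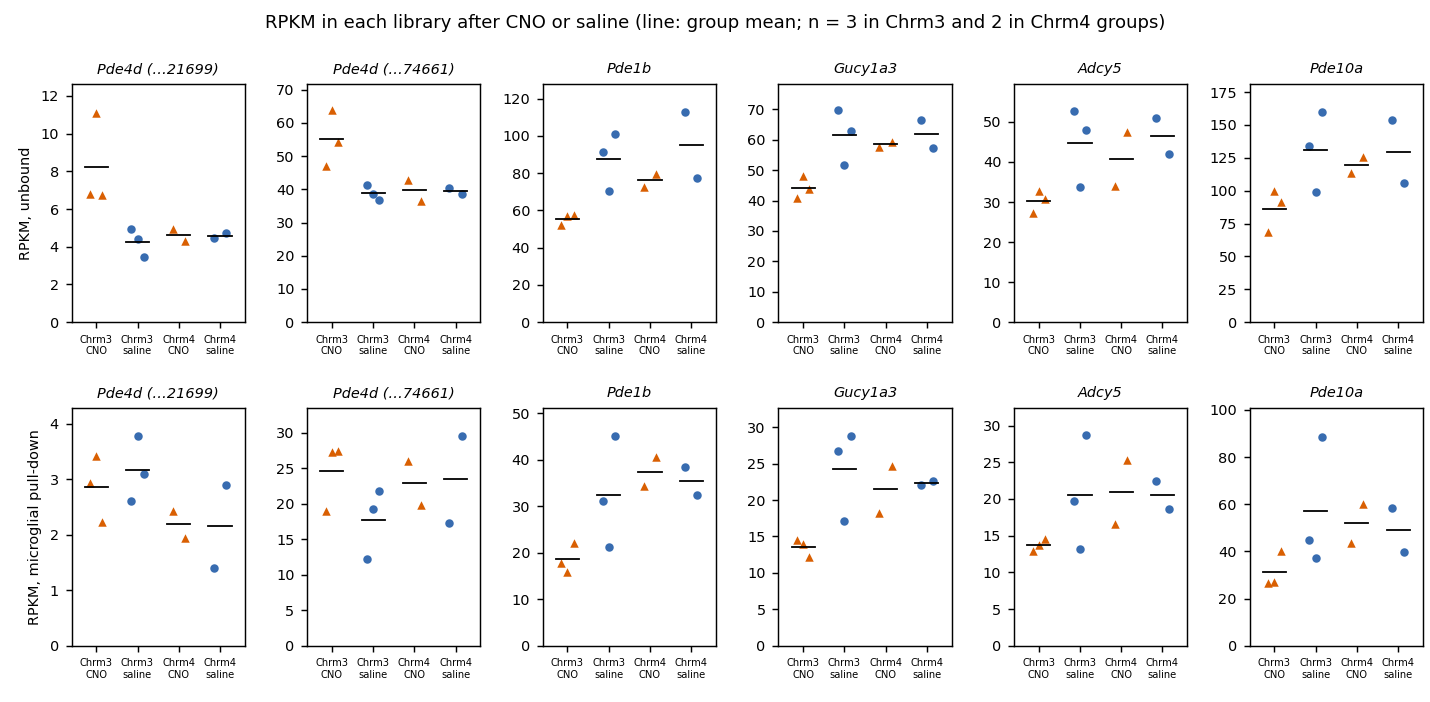
RPKM of 5 genes on 6 lines (Pde4d has 2) in unbound RNA (top) and microglial pull-downs (bottom), in each library of Chrm3 mice given CNO or saline and Chrm4 mice given CNO or saline (lines at group means). In the top row both Pde4d lines lie higher in every Chrm3 CNO library than in any Chrm3 saline library, and Pde1b, Gucy1a3 and Adcy5 lie lower.

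In Chrm4 mice 0 of 43 members passed limma's adjusted p in pull-downs and 0 of 47 in unbound RNA, where 0% of 11465 and 0% of 11123 genes did. By limma-voom 0 members and 0 of all genes passed in either fraction. At an unadjusted p under 0.05 there were 0 members in pull-downs, beside 3.78% of all genes, and 3 in unbound RNA, beside 5.03%. Prkg1 had 5.37 and 5.71 RPKM after CNO and 2.17 and 3.1 RPKM after saline in unbound RNA (0.86 ± 0.22, limma adjusted p = 0.831). It lay higher in both CNO libraries, as did 17.3% of all genes. Akap8l (-0.72 ± 0.22) and Adcy3 (-0.45 ± 0.20) lay lower there. Cell type markers also differed between these libraries, with 0 past the threshold. The 5 choroid plexus and ependyma markers summed to 35.7 to 289 RPKM after CNO and 8.64 to 12 RPKM after saline, and the 5 D2 spiny neuron markers measured, all lower, to 338 to 414 RPKM after CNO and 559.8 to 705 RPKM after saline. Depth of these unbound libraries differed too, at 106 M and 109 M reads in genes after CNO and 20.5 M and 23.6 M after saline. The part of the markers and of depth in the values of Prkg1, Akap8l and Adcy3 was not tested. Prkg1 differed between the Chrm3 and Chrm4 responses by -1.17 ± 0.28 in unbound RNA and did not pass (limma adjusted p = 0.248). Pde3b and Akap13 in Chrm4 pull-downs had log2 differences of 0.20 ± 0.29 and 0.086 ± 0.22.

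Among the listed companions in Chrm3 unbound RNA 3 of 51 rose after CNO and 0 fell, where 0.701% of all genes passed. The list was chosen with earlier results of these data known, so this count is a description and no test of the list. The genes that rose are named here. Gpr3, a receptor that raises cAMP without a ligand, had 5.04 RPKM on average after CNO and 1.94 RPKM after saline (log2 1.05 ± 0.21, limma adjusted p = 0.0439). The cAMP-induced kinase Sik1 had 5.99 and 2.25 RPKM (1.12 ± 0.21, limma adjusted p = 0.0388). The cAMP-induced transcription factor Crem had 8.74 and 4.03 RPKM (0.96 ± 0.19, limma adjusted p = 0.049). No companion passed in the other 3 comparisons of CNO with saline.

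Il34 encodes a ligand of the microglial receptor Csf1r. Its own RNA did not separate the labels: Il34 (ENSMUSG00000031750) had 11.1, 9.84 and 9.9 RPKM in D1 pull-downs labelled knockout, against 6.56, 9.87, 9.19 and 10.5 RPKM in those of controls. In unbound RNA it had 3.14, 2.29, 2.02 and 2.61 RPKM in labelled knockouts and 2.57, 2.66, 2.8 and 3.37 RPKM in controls. The groups overlap in both fractions, which stretch of the gene the allele removes is not given in the sources used here, and the genotypes are therefore named by their labels. The 14 microglial markers tested in unbound RNA all lay lower in labelled knockouts (median log2 -0.52), summing to 27.4 to 57.2 RPKM in labelled knockouts and 58.8 to 70.7 RPKM in controls, and 0 of them passed. Of the members, 39 were tested in D1 pull-downs and 40 in unbound RNA, and 0 passed limma's adjusted p, where 0.00957% of 10452 genes (1 gene) and 0% of 9853 genes did. By limma-voom 0 members passed as well, and 1 in D1 pull-downs and 0 in unbound RNA had an unadjusted p under 0.05, beside 1.53% and 0.883% of all genes. The members' log2 differences lay between -0.19 and 0.34 in D1 pull-downs and between -0.15 and 0.16 in unbound RNA.

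The smallest p was that of Akap8l, a nuclear protein related to Akap8, with 10.2, 9.72 and 9.25 RPKM in D1 pull-downs of labelled knockouts and 6.67, 6.93, 7.45 and 9.04 RPKM in those of controls (log2 0.34 ± 0.11, 95% interval 0.10 to 0.58, limma unadjusted p = 0.0112, adjusted p = 1). All labelled knockouts lay above all controls, as for 1.93% of genes. Pde4b had 39.4, 43.1 and 42.4 RPKM in D1 pull-downs of labelled knockouts and 44.6, 49.6, 52.3 and 44.4 RPKM in those of controls, all lower as for 0.842% of genes, with an interval of -0.40 to 0.014. Pde10a had 205, 241 and 227 RPKM in D1 pull-downs of labelled knockouts and 228, 239, 267 and 233 RPKM in those of controls, which overlap, with an interval of -0.33 to 0.11. The levels of Adcy5 and Pde1b given above likewise overlapped between the genotypes in both fractions. Intervals were widest for Pde1a (-0.58 to 0.97 in D1 pull-downs) and Adcy1 (-0.34 to 0.77), both highest in the libraries with high cortical markers. Pde1a had 38.5 RPKM in that labelled knockout pull-down and 18.1 and 24.2 RPKM in the others, and 46.2 RPKM in that control pull-down, against 14.3 to 20.9 RPKM in the others.

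**Figure D5:**
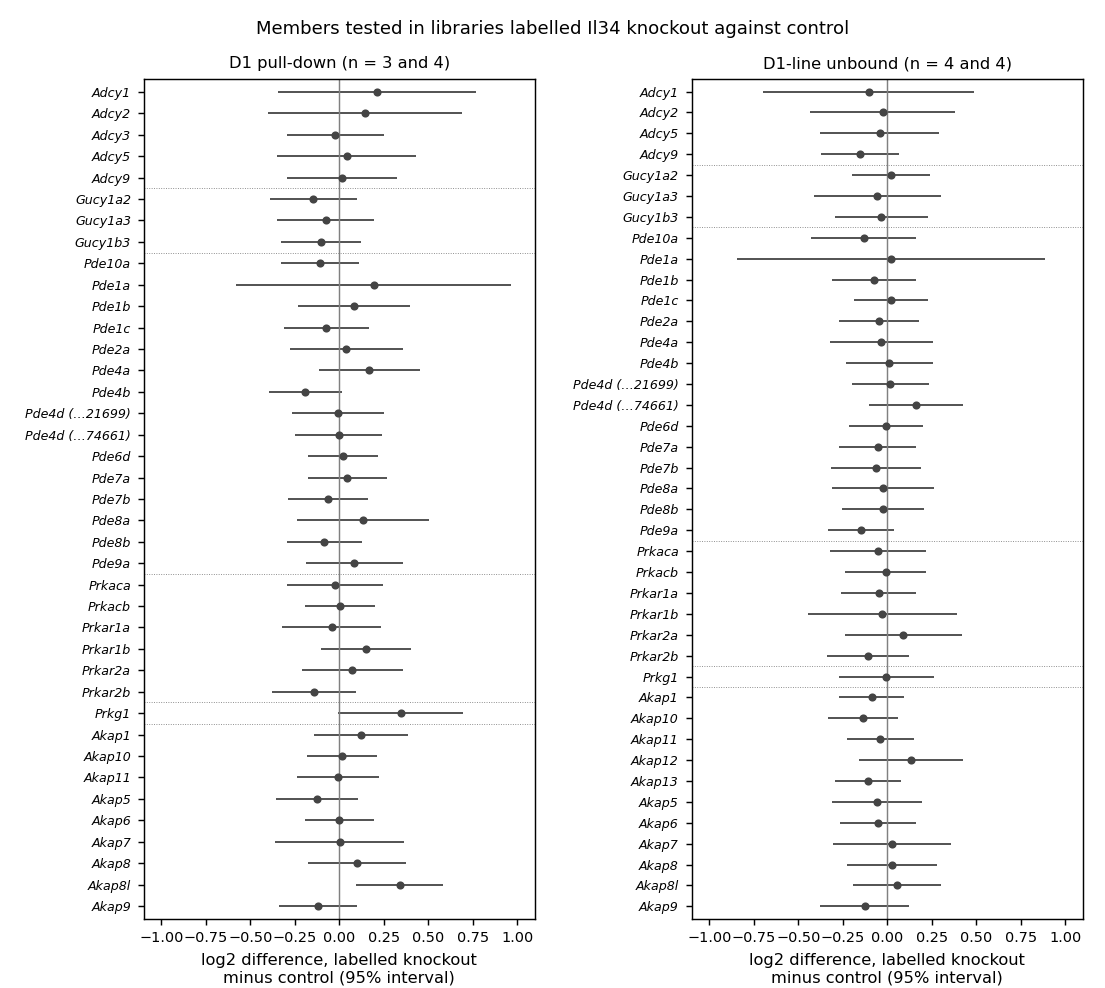
Log2 difference of each member tested between labelled Il34 knockouts and controls, with its 95% interval, in D1 pull-downs (left, 3 and 4 libraries) and unbound RNA of the D1 line (right, 4 and 4). The interval of Akap8l in D1 pull-downs (0.10 to 0.58) lies right of 0, and Pde1a and Adcy1 have the widest intervals.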

How the data were processed

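The deposited values are RPKM per gene and library, 1 table for the 20 libraries of the designer-receptor mice and 1 for the 15 of the D1 line. TopHat2 2.1.0, with HTSeq 0.6.0, bcl2fastq and DESeq2, appears in the processing notes of the submitters, and per the labels' protocols libraries were made with NuGEN Ovation V2 and a TruSeq DNA kit and sequenced as 75-cycle single reads. A single-nucleus sample was not analysed here.

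RPKM were tested as log2(RPKM + 1) with limma 3.58.1 (R 4.3.3, intensity trend, two-sided), over all genes with a mean of at least 1 RPKM in the fit, with Benjamini-Hochberg adjustment and a threshold of 0.05. The pseudocount understates changes of low genes. The low values gave whole reads for 100% of genes above 0 in 2 or more libraries (tolerance 0.0001), from which depth was recovered. Alternatives were a pseudocount of 0.1, no filter, quantile normalization, limma-voom on the recovered reads, Chrm3 or Chrm4 saline groups alone, and leaving out each library. The tables were deposited separately, and levels were not tested across them. Depth limits low genes, and counting error is the smallest error a value can have.

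Members and lists were chosen with earlier results of these data known. Named with values are members that passed (up to 12 per direction by size), otherwise the 6 with the smallest p, and examples from a fixed set of the main enzymes of each role. Promoters came from RefSeq, build GRCm38.p6, and 11 symbols had none.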

Additional observations from a re-analysis of the deposited data

Results flagged for a closer look

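In the D1 line, where groups of 4 libraries could be examined by Dixon's test, 9 of 78 group tests over 26 members had 1 library far from the other 3. Chance gives about 1 in 20 for unrelated tests. These tests share the same libraries across members, so that rate is no measure for their count, which is given as a description. In 7 of the 9 it was library 1 of its group, whose cortical glutamatergic markers summed to 58.3 RPKM in unbound RNA of labelled knockouts and 75.2 RPKM in control D1 pull-downs, the highest of each group. In unbound RNA of labelled knockouts this library was highest for Adcy1 at 19.45 RPKM (others 6.569 to 8.654), Adcy9 at 3.09 RPKM (2.361 to 2.475) and Akap7 at 8.501 RPKM (4.876 to 5.476), and lowest for Pde7b at 29.84 RPKM (37.81 to 38.86). In control D1 pull-downs it was highest for Akap7 at 4.832 RPKM (3.011 to 3.185) and Prkar1a at 270.2 RPKM (192.8 to 201), and lowest for Pde1b at 183.7 RPKM (262.3 to 274.3). In control unbound RNA library 1 also had the highest cortical sum of its group, 46.8 RPKM, but it was flagged for none of the members. The part of the cortical RNA in the flagged values was not tested. The other 2 were library 4 of its group: the Pde4d line ENSMUSG00000074661 at 11.14 RPKM in control unbound RNA (16.26 to 16.68) and Prkacb at 227.9 RPKM in control D1 pull-downs (236.3 to 236.9).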

How the results depend on the processing

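No paired analysis was possible because the columns carry no replicate numbers, so no library could be matched with another of the same animal. The pull-down comparison in microglia had 36 members past the threshold, and 31 to 35 when single libraries were left out, with 0 of its named members reversed under any alternative run. The lower calls of Adcy2, Adcy8, Akap12, Pde4a, Pde2a, Pde8a, Pde9a, Prkaca and the Pde4d line ENSMUSG00000021699 were each lost when at least 1 library was left out. The Chrm3 saline groups alone gave 29 and the Chrm4 saline groups alone 28, and 8 of the calls were lost in each. Adcy2, Adcy8, Akap12, Pde2a, Pde4a and Pde8a were lost in both, the Pde4d line ENSMUSG00000021699 and Prkaca with Chrm3 alone, and Pde6d and Pde9a with Chrm4 alone. Scaling mattered most in the D1 line: 38 members past the threshold in labelled knockouts became 20 after quantile normalization and 22 with voom on recovered reads, and 37 in controls became 19 and 22. All genes called split 93.5% higher as deposited in labelled knockouts, against 58.5% and 48.8% under these scalings, and 92.5% in controls, against 61.2% and 48.2%. The median of all genes moved with the scaling. Leaving out single libraries gave 36 to 38 in labelled knockouts and 35 to 37 in controls. Signs reversed under these 2 scalings as log2 differences. After quantile normalization they were, in labelled knockouts, Adcy1 -0.21, Akap5 -0.14, Akap6 -0.21, Gucy1a2 -0.49, Gucy1a3 -0.58, Gucy1b3 -0.056, Pde4b -0.15, Pde4d line ENSMUSG00000074661 -0.20, Pde7a -0.020 and Prkar2a -0.46, and in controls Akap10 -0.014, Akap5 -0.0053, Akap6 -0.24, Gucy1a2 -0.28, Gucy1a3 -0.53, Pde7a -0.047 and Prkar2a -0.36. With voom they were, in labelled knockouts, Adcy1 -0.25, Adcy9 -0.0038, Akap10 -0.072, Akap5 -0.046, Akap6 -0.21, Gucy1a2 -0.52, Gucy1a3 -0.53, Pde1c -0.035, Pde4b -0.12, Pde4d line ENSMUSG00000021699 -0.0080, Pde4d line ENSMUSG00000074661 -0.19, Pde7a -0.26 and Prkar2a -0.57, and in controls Adcy9 -0.16, Akap1 -0.11, Akap10 -0.22, Akap6 -0.20, Akap8 -0.0061, Gucy1a2 -0.28, Gucy1a3 -0.44, Pde7a -0.34 and Prkar2a -0.49. For CNO in Chrm3 unbound RNA 0 members passed as reported and 2 with voom, where voom called 147 of 11123 genes higher and 18 lower. Leaving out single libraries gave 0 to 2 members. The other comparisons of CNO, Il34 and responses had 0 members past the threshold under every alternative run. Depth of 11.3 M to 109 M reads limits members near 1 RPKM most.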
